A study of Homo sapiens with 2 samples.

Results

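The PAX family comprises 9 genes of the 64449 in the annotation, PAX1 to PAX9, and all 9 were followed here through whole genome bisulfite sequencing (WGBS) of HEK293T, a cell line derived from human embryonic kidney. Each member was chosen by name and measured over its promoter (1 kb either side of the gene start), its body and its 5-kb flanks, in hg19 coordinates. There was 1 library in each of 2 groups. The Neg library came from HEK293T cells that the study describes as not transduced, although the labels attach the same treatment text to both libraries. The dCas9+3A+HOXA5 library came from HEK293T cells transduced with lentiviral dCas9-SunTag, scFv-DNMT3A1 and a guide RNA to HOXA5, sorted for fluorescence and collected after 30 days. dCas9-SunTag is a catalytically dead Cas9 fused to repeated epitopes. The scFv is an antibody fragment that binds those epitopes and carries the de novo methyltransferase DNMT3A1 to the guided site. No replicate exists, so that the p-values below compare 2 libraries and not 2 conditions, and transduction, sorting, culture and the guide cannot be told apart. On GRCh37 the members lie at chr20:21686297-21699119 (PAX1), chr10:102495153-102589701 (PAX2), chr2:223064606-223163717 (PAX3), chr7:127250346-127258196 (PAX4), chr9:36833266-37034265 (PAX5), chr11:31806327-31839509 (PAX6), chr1:18957340-19075360 (PAX7), chr2:113973574-114036498 (PAX8) and chr14:37126773-37148567 (PAX9). None of them was a target of the guide, and the question is what their methylation looked like beside that of all other genes.

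PAX proteins are transcription factors that bind DNA through a paired domain and direct the formation of organs in the embryo. They fall into subgroups by structure: PAX1 with PAX9, PAX2 with PAX5 and PAX8, PAX3 with PAX7, and PAX4 with PAX6. PAX2 and PAX8 act in the developing kidney, the organ from which HEK293T cells were derived. Methylation of the CpG-rich DNA at a gene's start usually accompanies silence of that start, and CpG-rich starts of developmental genes are unmethylated in most tissues.

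A CpG was counted as covered when each library had at least 1 read there. Read counts summed over CpGs of the main chromosomes were 89774283 in the Neg library (median of 3 at a CpG) and 46703423 in the dCas9+3A+HOXA5 library (median of 2). A read that spans several CpGs is counted at each of them, here and in all read counts below. The 2 libraries shared 14699127 CpGs, with a mean level of 63.7% in Neg and 69.5% in the dCas9+3A+HOXA5 library, a genome-wide difference of 5.81 percentage points. At the targeted HOXA5 promoter the mean level was 1.87% in Neg and 41.2% in the dCas9+3A+HOXA5 library over 116 CpGs, which goes with the labels.

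The sequences below, read from the GRCh37 assembly and written 5′ to 3′ on the gene's strand with each CpG in capitals, show the contrasts that the values turn on. The first 3 lie just upstream of canonical transcript starts, the transcript that the annotation ranks first, and leave out annotated exons. PAX2 (chr10:102505039-102505338, plus strand) was little methylated. PAX5 (chr9:37034266-37034565, minus strand) and PAX8 (chr2:114036499-114036798, minus strand) were methylated. The last 2 lie in 500-bp tiles called higher in dCas9+3A+HOXA5, 1 upstream of the canonical PAX6 start (chr11:31836694-31836993, minus strand) and 1 in a PAX5 intron (chr9:36940261-36940560, minus strand).
PAX2 canonical promoter: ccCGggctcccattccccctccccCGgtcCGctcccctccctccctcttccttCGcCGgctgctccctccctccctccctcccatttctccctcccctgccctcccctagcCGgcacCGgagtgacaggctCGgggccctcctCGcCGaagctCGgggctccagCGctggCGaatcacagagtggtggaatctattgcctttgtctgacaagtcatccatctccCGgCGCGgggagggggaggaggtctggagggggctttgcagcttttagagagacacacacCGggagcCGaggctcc
PAX5 canonical promoter: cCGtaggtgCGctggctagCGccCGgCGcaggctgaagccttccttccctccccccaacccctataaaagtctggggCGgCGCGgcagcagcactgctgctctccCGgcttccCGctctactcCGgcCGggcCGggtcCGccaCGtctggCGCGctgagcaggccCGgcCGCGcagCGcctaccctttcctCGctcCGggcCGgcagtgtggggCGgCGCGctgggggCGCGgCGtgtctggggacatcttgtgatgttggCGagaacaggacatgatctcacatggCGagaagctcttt
PAX8 canonical promoter: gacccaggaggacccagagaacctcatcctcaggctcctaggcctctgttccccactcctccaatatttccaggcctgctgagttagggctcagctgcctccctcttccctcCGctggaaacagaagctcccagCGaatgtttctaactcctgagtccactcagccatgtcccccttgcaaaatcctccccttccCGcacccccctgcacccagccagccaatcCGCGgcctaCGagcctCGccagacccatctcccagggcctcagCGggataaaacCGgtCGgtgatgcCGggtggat
PAX6 upstream tile: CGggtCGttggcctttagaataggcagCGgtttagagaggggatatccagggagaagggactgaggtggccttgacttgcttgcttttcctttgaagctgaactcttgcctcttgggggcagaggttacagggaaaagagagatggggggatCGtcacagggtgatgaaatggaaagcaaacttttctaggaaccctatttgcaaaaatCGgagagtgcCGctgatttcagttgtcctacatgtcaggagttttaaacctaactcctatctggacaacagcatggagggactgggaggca
PAX5 intron tiles: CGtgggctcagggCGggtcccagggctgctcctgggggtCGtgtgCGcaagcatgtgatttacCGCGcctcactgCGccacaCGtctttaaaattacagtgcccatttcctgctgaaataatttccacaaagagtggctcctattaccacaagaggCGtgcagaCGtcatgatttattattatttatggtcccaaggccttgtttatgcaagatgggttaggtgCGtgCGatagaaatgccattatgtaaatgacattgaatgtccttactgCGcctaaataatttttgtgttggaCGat
Over the PAX2 stretch, with 18 CpGs of which 15 were covered, the mean level was 6.67% in Neg and 0% in the dCas9+3A+HOXA5 library. The PAX5 stretch held 32 CpGs, all covered, at 96.2% and 98.4%. Thus 2 CpG-dense starts of related genes lay at opposite ends of the scale in both libraries. The PAX8 stretch had 11 CpGs at 92.4% and 84.4%. The 14 CpGs of the PAX5 intron stretch were at 17.3% in Neg and 82.1% in the dCas9+3A+HOXA5 library. The 5 covered CpGs of the PAX6 upstream stretch were at 30.0% (3 of 20 reads methylated) and 100% (30 of 30).

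The promoters at the first annotated starts of the family were mostly methylated in the Neg library. In Neg, 5 of the 9 promoters, those of PAX1, PAX2, PAX5, PAX8 and PAX9, had a mean level above 80% over the window, and the median of the 8 promoters with at least 5 covered CpGs was 86.5%, against 57.8% over the 53244 promoters tested. At the starts of canonical transcripts the levels were more mixed: 3 of the 9, those of PAX1, PAX5 and PAX8, were above 80%, and the median of the 8 tested was 43.96%, against 56.4% over all genes. At the first annotated starts, none of the 8 was called, where a call needed a difference above 20 points, an adjusted p under 0.01 (Fisher's exact test on summed reads, two-sided, Benjamini-Hochberg over all promoters) and a read share that moved the same way. Over all genes, 2.31% of promoters were called higher and 0.588% lower. The 5 above 80% in Neg had under 20 points left to gain, so that only a loss could be called for them. No PAX promoter reached an unadjusted p of 0.05 on the summed reads. A Cochran-Mantel-Haenszel test, which compares the reads within each CpG, gave adjusted p-values of 0.0068 for PAX3 and 0.039 for PAX1. It called 0, since no difference passed 20 points, and the PAX1 p was also above 0.01. In windows of 2 kb either side, the adjusted Fisher's exact p was under 0.01 for PAX1, PAX3 and PAX7, again with no difference above 20 points. Those p-values compare summed reads, and the direction of the read share in these wider windows is not given.

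PAX1 and PAX9 act in the sclerotome and pharyngeal pouches, from which vertebrae and thymus form. Averaged over its window, the PAX1 promoter was at 84.5% ± 30.4 (SD over 72 CpGs) in Neg and 72.6% ± 40.6 in the dCas9+3A+HOXA5 library, a difference of -11.9 points (adjusted Fisher's exact p = 0.470). The 6 covered CpGs within 300 bp of the canonical start, 5 bp from the first, were at 12.5% (17 reads) and 0% (14 reads). The other 66 CpGs of the window were at 91.0% and 79.2%. All 6 lay 154 to 178 bp downstream of that start, with at most 3 reads each in either library. No CpG closer to it was covered, so the level at the start itself was not measured. Around the start of transcript PAX1-202, 564 bp downstream, the level was 86.3% and 70.7%. PAX1 had the lowest difference of the 8 promoters. In the promoter its 95% Wilson intervals for the share of methylated reads overlapped (79.3 to 88.5% in Neg, 73.3 to 84.6% in dCas9+3A+HOXA5). Around PAX1-202 they were 85.9 to 91.7% and 71.1 to 81.1%, with no test run there. That window shares CpGs with the promoter window, and intervals on reads counted at several CpGs are too narrow. The difference was -12.5 points within 2 kb of the start (126 CpGs, adjusted Fisher's exact p = 0.0013) and -22.1 points within 500 bp (17 CpGs, adjusted Fisher's exact p = 0.897). The PAX9 promoter was at 91.4% in Neg and 86.4% in the dCas9+3A+HOXA5 library over 68 CpGs. Its canonical transcript begins 4292 bp further downstream, and that window joined an unmethylated start to methylated sides: the 28 CpGs within 300 bp of the start were at 1.79% in Neg and 1.19% in the dCas9+3A+HOXA5 library, and the other 44 at 68.4% and 70.3%, for a mean of 42.5% and 43.4%.

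PAX2, PAX5 and PAX8 share a structure, and serve the kidney and ear (PAX2), B lymphocytes (PAX5), and the thyroid and kidney (PAX8). The first annotated start of PAX2 was methylated, at 88.5% ± 18.3 (SD over 76 CpGs) in Neg and 95.5% ± 11.4 in the dCas9+3A+HOXA5 library (adjusted Fisher's exact p = 0.297). The canonical start of PAX2, 10186 bp downstream, was unmethylated in both libraries, at 3.34% (12 of 361 reads) and 2.27% (6 of 435 reads) over 98 CpGs. One gene therefore held a methylated and an unmethylated start, and neither was called. The unmethylated stretch of PAX2 was narrow: the 500-bp tile centred 2589 bp upstream of the canonical start stood at 76.2% in Neg and 100% in the dCas9+3A+HOXA5 library, the one 1411 bp downstream at 87.1% and 91.7%.

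PAX5 was methylated at its start, 91.1% ± 22.9 (SD over 89 CpGs) in Neg and 95.1% ± 18.2 in the dCas9+3A+HOXA5 library. An unmethylated stretch lay inside the gene: tiles centred 7515, 7015 and 6515 bp downstream of the start were at 2.24%, 4.82% and 0% in Neg and at 0%, 0.439% and 1.28% in dCas9+3A+HOXA5. The nearest annotated start, that of PAX5-218 at 8520 bp, was at 58.6% and 50.9%. The PAX8 promoter was at 91.7% ± 16.6 in Neg and 91.0% ± 17.1 in the dCas9+3A+HOXA5 library over 79 of 84 CpGs. All 6 of its tested CpG-rich tiles were above 80% in Neg.

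PAX3 and PAX7 mark the neural crest and muscle progenitors. The PAX3 promoter was the least methylated of those tested, 5.75% in Neg and 18.6% in the dCas9+3A+HOXA5 library over 61 CpGs, the highest difference of the 8 (12.8 points). Summed over the promoter, the reads showed no such difference, 19 of 219 methylated in Neg and 17 of 195 in dCas9+3A+HOXA5 (adjusted Fisher's exact p = 1). Compared within each CpG they did, by 8.64 points in the Cochran-Mantel-Haenszel test above. Within 2 kb of the start the PAX3 mean differed by 9.11 points, and within 500 bp by 1.88 points (40 CpGs, adjusted Fisher's exact p = 1). The adjusted Fisher's exact p within 2 kb was 0.0030, but it compares summed reads, whose direction in that window is not given. In dCas9+3A+HOXA5, 11 of the CpGs stood at 100%, and these had a mean of 20.2% in Neg. Their read counts in dCas9+3A+HOXA5 were at most 3 each and summed to 18, with a read counted at every CpG it spans. The PAX7 promoter straddled a boundary. The 1 kb before the start was at 90.4% in Neg and 89.4% in the dCas9+3A+HOXA5 library, and the 1 kb after it at 19.4% and 23%. Over the whole promoter PAX7 was at 45.4% and 47.4%, a mean that describes neither side. The PAX7 difference depended on the window, with 1.95 points within 1 kb of the start. It was 21.1 points within 500 bp (28 CpGs, adjusted Fisher's exact p = 0.065). Within 2 kb it was 13.5 points (adjusted Fisher's exact p = 5.3e-05). These p-values compare summed reads and not the means over CpGs.

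PAX4 and PAX6 act in the pancreatic islet, and PAX6 is also the master regulator of eye development. The PAX4 promoter holds 7 CpGs, of which 4 were covered, so it was not tested. Their mean was 12.5% in Neg (3 of 18 reads) and 16.7% in the dCas9+3A+HOXA5 library (2 of 7 reads). PAX4 was also the member with no CpG-rich tile. The first annotated PAX6 start sat on a boundary as PAX7 did, with 90.8% in Neg and 96.4% in the dCas9+3A+HOXA5 library before the start and 24.1% and 26.9% after it. The canonical PAX6 start, 6639 bp downstream, was unmethylated, at 2.39% (5 of 256 reads) and 2.02% (6 of 413 reads) over 99 CpGs.

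In the order of Neg levels, the promoters of PAX8, PAX9, PAX5 and PAX2 had overlapping intervals for the share of methylated reads (86.7 to 92.6%, 88.9 to 94.8%, 88.0 to 94.0% and 85.4 to 92.2%), and PAX1 overlapped PAX2. Among the 8 tested promoters, the intervals of PAX6 (61.7 to 73.2%), PAX7 (37.7 to 50.5%) and PAX3 (5.62 to 13.2%) did not overlap those of their neighbours. These intervals describe pooled reads, are too narrow, and do not rank the means over CpGs. The PAX6 interval leaves out its own Neg mean of 51.2%, which was near the 45.4% of PAX7. The interval of PAX4, which was not tested, was 5.84 to 39.2% on 18 reads and overlapped those of PAX7 and PAX3. With promoters placed at canonical starts, 0 of the 8 tested were called, where 2.27% of all genes were called higher and 0.606% lower. For PAX1, PAX5 and PAX8, above 80% in Neg there, only a loss could be called. The plot of promoter CpGs shows how the levels of single CpGs lay at the ends of the scale.

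**Figure D1:**
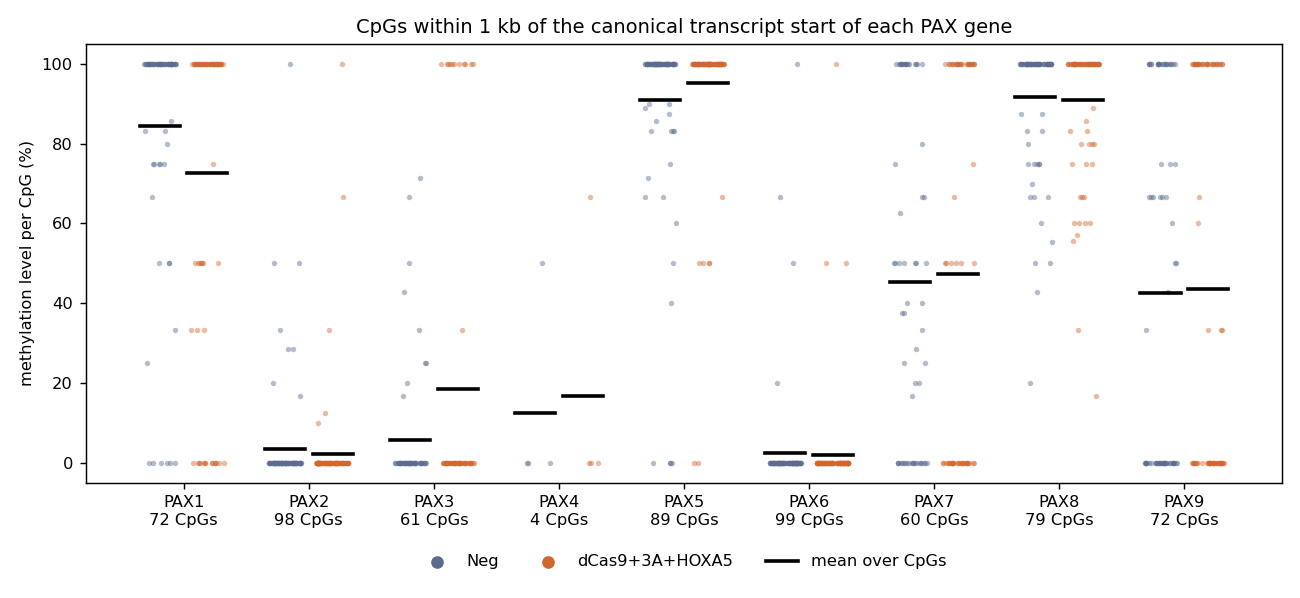
Methylation level (%) of every covered CpG within 1 kb of the canonical transcript start of each PAX gene, Neg in blue and dCas9+3A+HOXA5 in orange, with black bars for the mean over CpGs. PAX2 and PAX6 sit near 0 in both libraries (means of 3.34 and 2.27%, and of 2.39 and 2.02%), PAX5 and PAX8 above 90%, and the PAX3 points at 100% in dCas9+3A+HOXA5 are the 11 CpGs named in the text.

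Differences across PAX gene bodies were close to those across all gene bodies. None of the 9 bodies was called, where 3.81% of all bodies were called higher and 0.534% lower, although 6 of the 9 had an unadjusted p under 0.05. The adjusted p was under 0.01 for 4 of them (PAX5, PAX6, PAX7 and PAX8), whose differences stayed under 20 points, and a Cochran-Mantel-Haenszel test called 0. By that test the adjusted p was under 0.01 for these 4 and for PAX2 (4.61 points). The share of all gene bodies under these p thresholds was not counted, so these counts show nothing particular to the family. For the bodies of PAX1 and PAX9, above 80% in Neg, only a loss could be called by the mean level. The median body difference was 3.71 points, against 4.17 points over all genes. PAX5 had the highest, 69.3% in Neg and 76.5% in the dCas9+3A+HOXA5 library over 2103 CpGs (7.13 points, adjusted Fisher's exact p = 1.8e-14), followed by PAX7, at 69.1% and 75.6% over 1553 CpGs (6.50 points, adjusted Fisher's exact p = 1.1e-13). These were within 1 point of the mean differences of their chromosomes, 6.21 points on chromosome 9 and 5.77 on chromosome 1.

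The PAX2 body was at 77.0% in Neg and 81.6% in the dCas9+3A+HOXA5 library, PAX3 at 78.2% and 81.7%, PAX4 at 33.5% and 37.2%, and PAX8 at 79.4% and 81.6%. PAX4 had the least methylated body, and with 55 covered CpGs also the smallest. The PAX1 body was at 82.2% in Neg and 77.4% in the dCas9+3A+HOXA5 library (-4.81 points, adjusted Fisher's exact p = 0.016), whereas its chromosome, 20, differed by 3.53 points. The PAX9 body was level, 81.5% and 81.4%, on a chromosome with a difference of 6.31 points. For PAX6 the mean over CpGs and the reads went opposite ways: the mean was 58.2% in Neg and 63.2% in the dCas9+3A+HOXA5 library, the share of methylated reads 65.3% (1645 of 2519) and 60.6% (1306 of 2155), with an adjusted Fisher's exact p of 0.0034 on the reads. Compared within each CpG, the PAX6 reads were higher in dCas9+3A+HOXA5 by 3.998 points, and that Cochran-Mantel-Haenszel test also had an adjusted p under 0.01.

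By the mean over CpGs, exons and introns differed in the same direction in all members but PAX4 and PAX9. By the share of methylated reads, they also parted in PAX2, whose exons went from 80.4% to 77.5% and introns from 77.96% to 81.0%. In PAX3 that share went from 82.5% to 71.9% in exons and from 82.6% to 82.7% in introns, and in PAX6 it was lower in dCas9+3A+HOXA5 in both, where the means were higher. PAX5 exons were at 72.9% in Neg and 80.1% in the dCas9+3A+HOXA5 library, and its introns at 69.1% and 76.2%. PAX8 exons were at 81.5% and 87.3%, and its introns at 79.0% and 80.3%. PAX1 was lower in both, exons 84.1% and 79.4%, introns 79.7% and 74.7%.

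None of the 9 upstream flanks was called, where 3.67% of all genes were called higher and 0.435% lower, nor any of the 9 downstream flanks, where 3.67% were called higher and 0.439% lower. A Cochran-Mantel-Haenszel test again called 0, and 3 upstream and 3 downstream flanks had an unadjusted p under 0.05, of which those of PAX2 on either side had an adjusted Fisher's exact p under 0.01 with a difference under 20 points. By the Cochran-Mantel-Haenszel test neither PAX2 flank had an adjusted p under 0.01, and the upstream one differed by less than 2 points. That test instead gave an adjusted p under 0.01 for the upstream flanks of PAX1 (-9.18 points), PAX3 (6.07) and PAX4 (15.5). The share of all flanks under these p thresholds was not counted either. By the mean level, only a loss could be called for 5 upstream and 3 downstream flanks, which were above 80% in Neg. Upstream flanks were highly methylated at PAX6 (93.6% in Neg, 96.3% in dCas9+3A+HOXA5), PAX5 (91.8% and 87.5%), PAX9 (91.2% and 95.1%) and PAX7 (83.6% and 88.9%), and less so at PAX1 (81.4% and 74.4%), PAX8 (78.9% and 83.9%), PAX3 (72.2% and 80%), PAX2 (61.5% and 63.7%) and PAX4 (57.5% and 68.8%).

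Downstream flanks spread the most, on few CpGs. PAX9 was at 54.1% in Neg and 76.0% in the dCas9+3A+HOXA5 library over 11 CpGs (21.9 points, adjusted Fisher's exact p = 0.020), and PAX1 at 34.0% and 15.8% over 10 CpGs (-18.1 points, adjusted Fisher's exact p = 0.018). Both fell short of a call, PAX9 by its p and PAX1 by both criteria. Compared within each CpG, the PAX9 flank differed by 9.63 points and the PAX1 flank by -30.9. With at least 3 reads per CpG the PAX9 flank differed by -11.9 points (5 CpGs). The flank of PAX5 was at 70.6% and 89.7%, that of PAX4 at 59.8% and 76.0%, and that of PAX2 at 77.4% and 84.4%. The other four, PAX6 (85.6% and 94.1%), PAX3 (81.8% and 86.8%), PAX8 (83.5% and 85.1%) and PAX7 (28.8% and 30.6%), differed by less than 10 points.

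**Figure D2:**
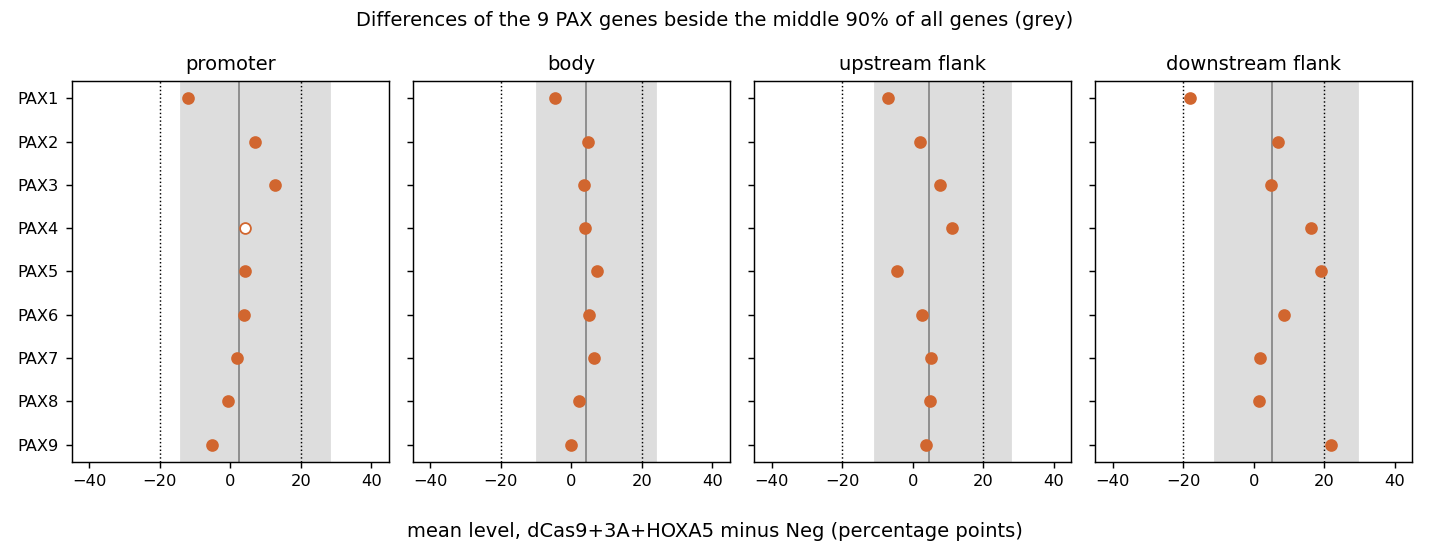
Difference in mean methylation level, dCas9+3A+HOXA5 minus Neg in percentage points, for the promoter, body and flanks of each PAX gene (orange points, open where under 5 CpGs were covered). Grey bands hold the middle 90% of all genes (-14.1 to 28.3 points for promoters), grey lines their median, dotted lines the 20-point threshold, and only the PAX1 downstream flank lies outside its band.

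Over windows of 500 bp the family held called gains. Of 626 tested tiles in the 9 genes and their flanks, 12 (1.92%) were called higher and 0 lower, where 1.05% of 1030139 tiles of the genome were called higher and 0.397% lower. With at least 3 reads per CpG 4 were called higher and 1 lower of 230 tested, where 1.8% of genome tiles were called higher and 0.793% lower. With at least 5 reads 1 of 58 was called higher and 0 lower, where the genome had 2.44% and 1.08%. A minimum of 10 covered CpGs, which fewer than the 626 tiles met, gave 13 higher and 1 lower (2.02% and 0.932% over the genome). A Cochran-Mantel-Haenszel test gave 8 and 1 (0.597% and 0.262% over the genome). With the share of methylated reads as the level the counts were 12 and 0 (1.13% and 0.433% over the genome). With 1-kb tiles, another set with its own number tested, they were 10 and 0 (1.43% and 0.391%). For 1-kb tiles and for the minimum of 10 CpGs the number of member tiles tested is not given. Those member counts therefore cannot be set against the genome shares. At an unadjusted p under 0.05, 78 member tiles (12.5%) were higher and 24 (3.83%) lower, near the 11.4% and 4.48% of genome tiles. The calls were in 4 members, 5 tiles in PAX5, 3 in PAX6, 2 in PAX2 and 2 in PAX7, and 7 lay in introns, 4 overlapped exons and 1 was in an upstream flank. No called tile was CpG-rich by the definition given below. None held a CpG where the opposite strand gave evidence of a C-to-T variant, which needed at least 5 reads there with under 80% G. How many CpGs had that many opposite-strand reads was not counted, so a count of 0 does not show that variants were absent.

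PAX6 had the 2 largest called gains of single tiles by the mean over CpGs (69.1 and 68.4 points). All 3 of its called tiles lay between its starts. In Neg, a block of adjacent tiles of 4 kb around the canonical start (chr11:31831001-31835000) was unmethylated, 1.91% over 169 covered CpGs. Its 1 kb furthest upstream (chr11:31834001-31835000, 2 called tiles) went from 2.50% in Neg (3 of 105 reads) to 61.9% in dCas9+3A+HOXA5 (23 of 43 reads) over 28 covered of 62 CpGs. The other 3 kb, which holds the canonical start, was at 1.80% in Neg (6 of 420 reads) and 5.67% in the dCas9+3A+HOXA5 library (18 of 549 reads). The block was thus shorter on its upstream side in the dCas9+3A+HOXA5 library.

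Tile by tile, the libraries parted with distance from the canonical start. The tile centred 380 bp upstream was at 3.03% in both libraries and the next, at 880 bp, at 0% in Neg (0 of 40 reads) and 26.2% in the dCas9+3A+HOXA5 library (10 of 102 reads), which was not called (adjusted Fisher's exact p = 0.352). At 1380 bp the level was 4.12% and 72.5% (3 of 67 and 15 of 26 reads, adjusted Fisher's exact p = 2.2e-05), and at 1880 bp 0% and 45.5% (0 of 38 and 8 of 17 reads, adjusted Fisher's exact p = 0.0023). No CpG of these called tiles had more than 3 reads in the dCas9+3A+HOXA5 library, so the gain rests on few molecules.

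Further upstream the DNA was methylated in both libraries, at 93.2% and 100% in the tile at 2880 bp and at 95.7% and 91.1% in the tile at 3380 bp. A further called tile (chr11:31836501-31837000, at 3880 bp) went from 26.2% in Neg (4 of 29 reads) to 95.2% in dCas9+3A+HOXA5 (35 of 37 reads, adjusted Fisher's exact p = 9.0e-09) over 7 of 10 CpGs. The tile beyond it, at 4380 bp, was at 11.8% and 40.9% and was not called (adjusted Fisher's exact p = 0.081). It borders a second unmethylated stretch, whose tiles at 4880, 5380 and 5880 bp were at 1.23%, 0% and 0% in Neg and at 3.12%, 11.1% (1 of 16 reads) and 2.86% in dCas9+3A+HOXA5. The called gains at PAX6 thus lay between 2 stretches that were little methylated in both libraries, on either side of a methylated one.

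**Figure D3:**
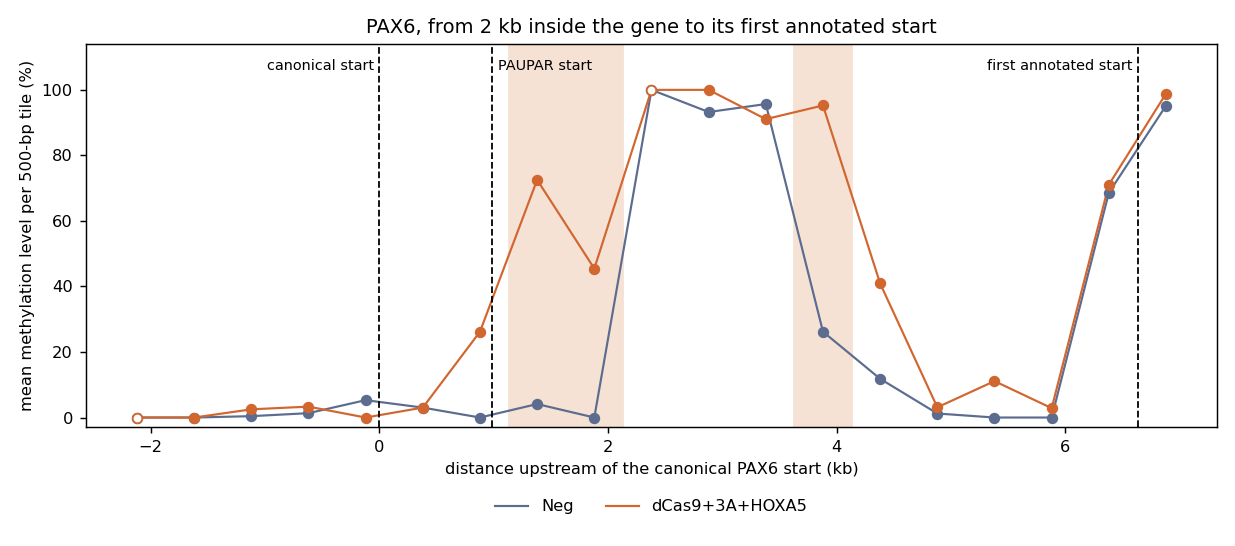
Mean methylation level (%) of 500-bp tiles against distance upstream of the canonical PAX6 start (kb), Neg in blue and dCas9+3A+HOXA5 in orange. Shaded tiles were called higher, open points have under 5 covered CpGs, and dashed lines mark the starts. The canonical start stays near 0% in both libraries while the shaded tiles go from 4.12, 0 and 26.2% in Neg to 72.5, 45.5 and 95.2% in dCas9+3A+HOXA5.

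Several annotated PAX6 starts lie in this stretch, and the windows 1 kb either side of them overlap and share CpGs. That of PAX6-204 was at 3.08% in Neg (7 of 240 reads) and 20.2% in the dCas9+3A+HOXA5 library (27 of 332 reads), and that of PAX6-255 at 2.44% (6 of 266 reads) and 24.6% (35 of 334 reads). The PAX6-235 window was at 1.37% (3 of 147 reads) and 44.8% (33 of 147 reads), and that of PAX6-260 at 18.1% (34 of 170 reads) and 62.7% (43 of 112 reads). The read counts give smaller gains than the means over CpGs. Further upstream the gap narrowed, to 71.5% and 84.9% around PAX6-269 and 51.2% and 55.1% around the first annotated start. Of 11 genes that overlap a PAX gene or begin in its flanks, 2 had a called promoter, where 2.31% of all promoters were called higher. Both begin here, 84 bp apart on the opposite strand, so that their windows share most CpGs and count as 1 measurement. They were PAUPAR, a long non-coding RNA named for its position upstream of PAX6 (2.57% in Neg, 6 of 252 reads, and 25.9% in dCas9+3A+HOXA5, 35 of 313 reads, over 92 CpGs, adjusted Fisher's exact p = 0.00088), and ENSG00000285283 (2.82% and 28.4% over 84 CpGs). By the share of methylated reads PAUPAR went from 2.38% to 11.2%, a difference of 8.80 points.

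PAX5 held the longest run of called tiles. In an intron, 3 adjacent tiles (chr9:36939501-36941000) were joined because each was called higher. Together they went from 37.9% in Neg (38 of 122 reads) to 92.2% in dCas9+3A+HOXA5 (71 of 77 reads) over 32 of 40 CpGs. The middle tile went from 19.5% to 80.8% (10 of 53 and 20 of 26 reads, adjusted Fisher's exact p = 0.00023). The tiles to its sides went from 51.2% to 100% (20 of 51 and 20 of 20 reads) and from 50% to 100% (8 of 18 and 31 of 31 reads). The next tile towards the start, centred 93015 bp from it, was at 77.4% in Neg and 92.9% in the dCas9+3A+HOXA5 library. The adjoining tile on the other side, at 95015 bp, had 3 covered CpGs, too few for a test, at 38.9% (4 of 13 reads) and 100% (4 of 4 reads). By the Cochran-Mantel-Haenszel test the called tile nearest the start lost its call and the other 2 kept it, and none of the 3 had enough CpGs for a test with at least 3 reads per CpG. The PAX5 tile that was still called at 3 and at 5 reads, named after its values were seen, overlaps an exon (chr9:36835501-36836000) and went from 63.0% in Neg (33 of 50 reads) to 89.4% in dCas9+3A+HOXA5 (54 of 57 reads, adjusted Fisher's exact p = 0.0093). It lost its call by the Cochran-Mantel-Haenszel test.

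PAX7 had a called tile next to its start. The tile centred 1410 bp downstream of it (chr1:18958501-18959000) went from 53.0% in Neg (57 of 110 reads) to 91.7% in dCas9+3A+HOXA5 (45 of 50 reads, adjusted Fisher's exact p = 0.00028) over 25 of 28 CpGs. It borders the less methylated side of the promoter, where the tiles at 410 and 910 bp were at 5.56% and 36.9% in Neg and at 15.3% and 13.3% in dCas9+3A+HOXA5. The second called PAX7 tile (chr1:19026001-19026500) lay in an intron and went from 60.6% to 90.7% (24 of 43 and 56 of 60 reads). Neither PAX7 tile was called with at least 3 reads per CpG, and the second was not called by the Cochran-Mantel-Haenszel test.

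PAX2 held 2 called tiles. A tile in the upstream flank (chr10:102491001-102491500) went from 69.5% in Neg (73 of 104 reads) to 91.5% in dCas9+3A+HOXA5 (89 of 96 reads, adjusted Fisher's exact p = 0.0044) over all of its 19 CpGs. A tile in an intron (chr10:102521001-102521500) went from 67% to 100% (17 of 28 and 34 of 34 reads, adjusted Fisher's exact p = 0.0039), and lost its call by the Cochran-Mantel-Haenszel test. With at least 3 reads per CpG the intron tile was still called and the flank tile was not. PAX1, PAX3, PAX4, PAX8 and PAX9 had no called tile, with 23, 38, 11, 55 and 25 tiles tested.

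**Figure D4:**
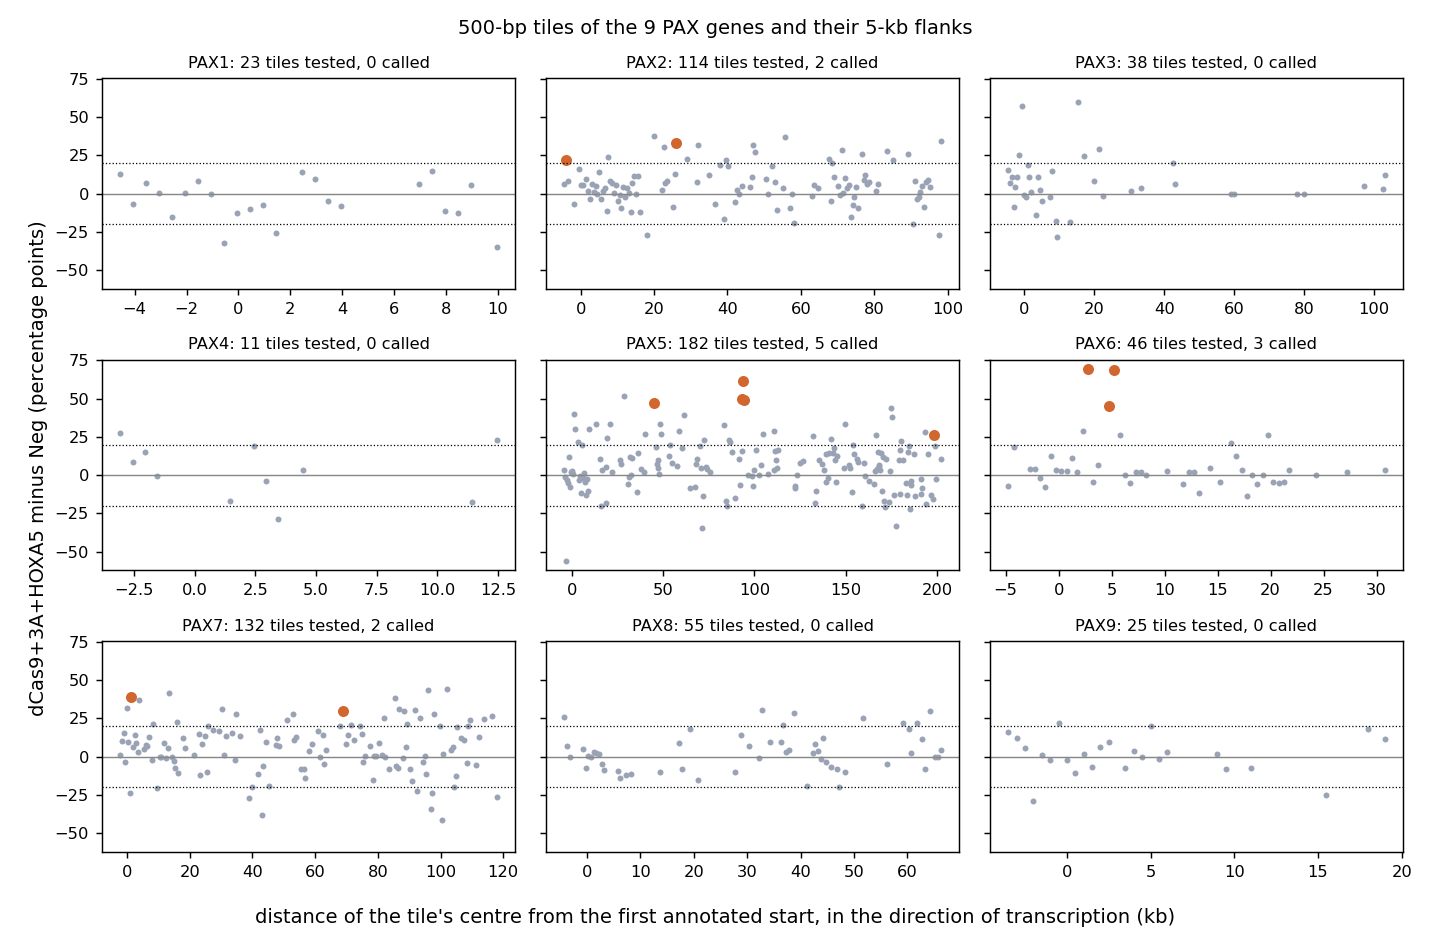
Difference in mean level, dCas9+3A+HOXA5 minus Neg in percentage points, of each tested 500-bp tile against its distance from the first annotated start (kb, own scale for each gene). Orange points are the 12 called tiles, 3 of them in PAX6 and 5 in PAX5, dotted lines the 20-point threshold, and grey points the tiles that were not called.

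CpG-rich tiles, defined as 500-bp tiles with at least 55% G and C and a CpG frequency of at least 0.65 of that expected from base composition, were mostly methylated in the family. In Neg, 49 of 79 tested member tiles (62.0%) were above 80% and 21 (26.6%) under 20%. Over the genome 24.4% of 39308 were above 80% and 60.8% under 20%. PAX2 (10 of 15), PAX6 (8 of 15), PAX5 (7 of 12) and PAX8 (6 of 6) held the most. In other families that build the embryo, the share above 80% was 39.4% of 33 tiles for DLX genes and 50.8% of 118 for LIM homeobox genes. These shares were not tested against each other.

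None of the 79 was called, where 1.4% of CpG-rich tiles of the genome were called higher and 1.14% lower, and the median difference was 1 point in members and 0 over the genome. The 49 member tiles above 80% in Neg could not gain more than 20 points, so that only a loss could be called for them. Over the genome, 0 of 9604 such tiles were called higher and 115 lower. None of the 21 member tiles under 20% in Neg was called, where 1.13% of such tiles were. The median level of these 21 tiles was 1.33% in Neg and 1.72% in the dCas9+3A+HOXA5 library. The other 547 tested member tiles, which did not meet that definition, had a median difference of 5.09 points, against 4.23 over the genome. They held all 12 calls, where 1.04% of such tiles of the genome were called higher and 0.368% lower. Not all were poor in CpGs, since the 1-kb called run of PAX6 held 62.

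**Figure D5:**
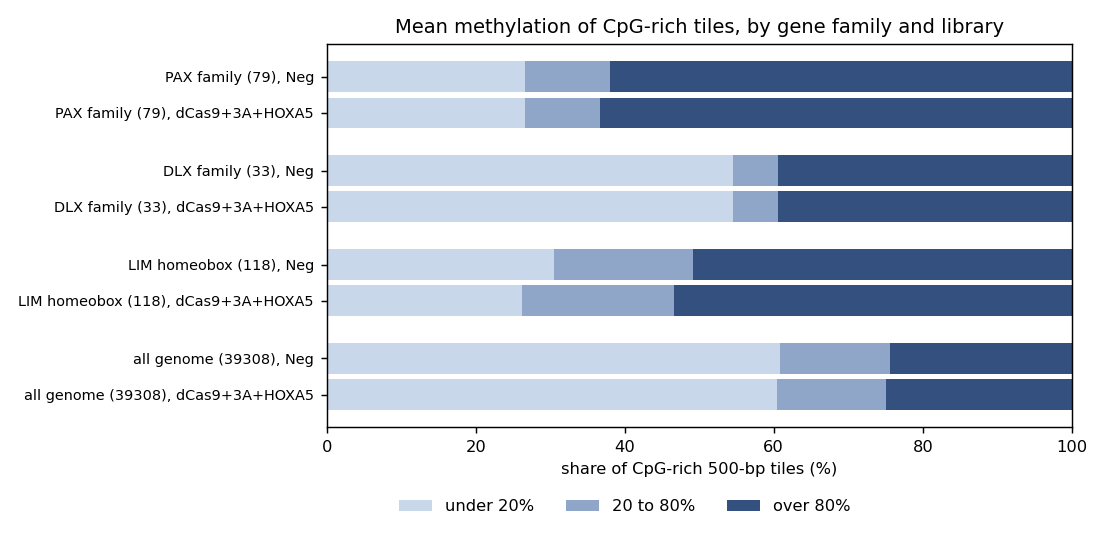
Share (%) of tested CpG-rich 500-bp tiles with a mean level under 20%, from 20 to 80% and over 80% for each gene family and for the genome, in Neg and in dCas9+3A+HOXA5, with the number of tiles in brackets. The PAX family has 62.0% over 80% in Neg and 63.3% in the dCas9+3A+HOXA5 library, and the genome 24.4% and 24.9%.

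Among 20 genes of kidney development, where PAX2 and PAX8 act, 1 of the 19 promoters tested was called, against 2.31% of all promoters called higher. It was that of GATA3, a zinc finger factor of the nephric duct, from 33.4% (44 of 149 reads) to 93.6% (109 of 115 reads) over 34 CpGs (adjusted Fisher's exact p = 1.6e-26). None of their 20 bodies was called, where 3.81% of all bodies were called higher. Of their flanks, 1 of 19 upstream (BMP7) and 1 of 20 downstream (GDNF) were called, where 3.67% of all genes were called higher on either side. Of 6 EYA and DACH genes, nuclear cofactors of the network in which PAX6 acts in the eye, 0 promoters, 1 body (DACH2), 1 upstream flank (EYA4) and 0 downstream flanks were called. The DACH2 body went from 27.7% (1697 of 5971 reads) to 48.0% (2164 of 4598 reads). DLX1 to DLX6 had 0 called promoters, bodies and upstream flanks and 1 called downstream flank (DLX1). Of 12 LIM homeobox genes, 1 promoter (LHX2, 51.6% to 96.0%), 1 body (ISL1, 38.5% to 75.4%), 0 upstream flanks and 4 downstream flanks (LHX8, LHX9, ISL1 and ISL2) were called, all higher. The genes with called flanks were named, and the EYA and DACH genes grouped, after their values were seen, and the lists were not tested against the family.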

How the data were processed

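Genomic DNA of 2 HEK293T libraries was bisulfite treated and sequenced (WGBS). The authors trimmed and aligned reads to hg19 with BSMAP (version 2.90 per the labels) and deposited, for each CpG, the methylated and total read counts, an estimated count corrected by the opposite strand, and the methylation level as a fraction of that estimated count. The deposited files list CpGs from 1 read, below the 5 reads named in the study's methods. Re-derived fractions and estimated counts matched the deposited ones at 100% of CpGs.

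CpGs with at least 1 read in both libraries were kept. A region's level is the mean of the deposited fractions over its covered CpGs, in percent. Genes are those of GENCODE release 44 lifted to GRCh37. Reads summed over a region (at least 5 covered CpGs) were compared with Fisher's exact test (two-sided), with Benjamini-Hochberg adjustment over all genes' regions of that kind or all 500-bp tiles. A call needed a difference above 20 points, adjusted p under 0.01 and the same direction of the read share. Neighbouring CpGs share fragments, so p-values and Wilson intervals (95%) cover counting error only and are too narrow. The test was checked on simulated promoters whose CpGs had independent reads. That check left out shared fragments and 500-bp tiles. Analyses used Python 3.11, numpy 2.4.6, scipy 1.17.1, numba 0.67.0, pandas 2.3.3 and matplotlib 3.10.9.

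Members, lists and tests were chosen with earlier results of these data known. All 9 members were named, the 3 largest called tile gains and losses in each, list genes with a called promoter or body, and neighbouring genes with a called promoter. Levels at transcript starts are given with no test. Alternatives changed the read minimum (3 or 5), the level (share of methylated reads), the number of CpGs (10), the test (Cochran-Mantel-Haenszel by CpG), the promoter window (500 bp or 2 kb), the tile length and, added after seeing the data, the promoter's start (canonical transcript). The counts of 1 gene list as a whole, a comparison family and 1 sequence are not reported here.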

Additional observations from a re-analysis of the deposited data

How the results depend on the processing

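The counts of PAX promoters, bodies and flanks called were 0 under every alternative run. The count of called tiles, 12 in the report, was 5 with at least 3 reads per CpG (4 higher, 1 lower, of 230 tested) and 1 with at least 5 reads (of 58 tested, in PAX5), where fewer tiles could be tested. Of the 12 tiles, 5 were tested and 2 still called at 3 reads, 2 tested and 1 still called at 5 reads, and 7 still called by a Cochran-Mantel-Haenszel test, which called 9 tiles. All that were tested stayed higher in dCas9+3A+HOXA5. None of the 3 PAX6 tiles, nor 4 of the 5 PAX5 tiles, could be tested at 3 reads.

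Of 200 alternative values for single member regions, 172 did not reverse their direction. Among these 172 was the PAX3 promoter with at least 5 reads per CpG, where the difference fell from 12.8 points to 0 (9 CpGs). The other 28, none of them a called region, changed direction. With at least 5 reads per CpG these were the bodies of PAX3 (-3.22 points), PAX4 (-21.1) and PAX9 (0.319), the upstream flanks of PAX5 (8.78) and PAX6 (-6.33) and the downstream flank of PAX8 (-5.95). With at least 3 reads they were the bodies of PAX4 (-4.77) and PAX9 (0.108), the upstream flanks of PAX5 (1.84) and PAX6 (-1.38) and the downstream flanks of PAX3 (-0.267), PAX8 (-2.85) and PAX9 (-11.9). With the share of methylated reads they were the PAX6 promoter (-6.33), the bodies of PAX3 (-2.00) and PAX6 (-4.70), the PAX3 upstream flank (-1.39) and the downstream flanks of PAX7 (-6.75) and PAX8 (-1.45). By Cochran-Mantel-Haenszel they were the bodies of PAX4 (-0.619) and PAX9 (0.545) and the PAX8 downstream flank (-0.822). Without CpGs within 1 kb of the start, the PAX9 body differed by 0.992 points. The PAX9 promoter differed by 1.88 points in a window of 500 bp either side and the PAX8 promoter by 1.39 in one of 2 kb. At canonical starts, promoters differed by -1.07 points in PAX2, -0.371 in PAX6 and 0.906 in PAX9. The cause of these changes was not tested.

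No paired analysis was possible because Neg and dCas9+3A+HOXA5 are 1 library apiece, and no setting left a library out. A median of 2 reads per CpG in the dCas9+3A+HOXA5 library limits what single CpGs and short tiles show.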
